A study of Arabis alpina with 9 samples.

Results

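The genes described here are the 37 Arabis alpina genes named as kinases, receptor-like kinases or kinase partners among those that differed between the eop089 mutant and its control. They were found by a search of the 6 gene tables deposited by the authors, taking every gene ID whose deposited name contains kinase, RLK or receptor-like in any letter case. The search gave 37 of the 1487 listed IDs, out of 30538 gene IDs counted, and each of the 37 matched a single entry of the count table. By their deposited names and the roles of the Arabidopsis genes so named, 33 of them encode protein kinases, and 19 of these are receptor kinases. The other 4 are not protein kinases: HKL1 is a hexokinase-like protein, PPDK a pyruvate orthophosphate dikinase, MAKR3 a membrane-associated regulator of kinases and PKS4 a phytochrome kinase substrate. A further 39 listed IDs carry the word kinase only in their description and were not taken, and the descriptions of 79 IDs were not used here.

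Arabis alpina is a perennial crucifer related to Arabidopsis thaliana. The series asks how AaTFL1, the counterpart of the floral repressor TFL1, takes part in its flowering. All 9 libraries came from eop089 mutant plants of the accession Pajares, raised in long days, and held polyadenylated RNA. There were 3 libraries of dissected shoot apices from plants 3 weeks old, 3 of dissected apices from plants 5 weeks old, and 3 of the 5th and 6th leaf of plants 5 weeks old. The labels give the mutant by its line name only, every group carries it, and the control libraries were not analysed here.

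Receptor kinases sit in the plasma membrane, where an outer domain senses a ligand such as a fragment of a microbe or a plant peptide and an inner domain phosphorylates partners. Receptor-like cytoplasmic kinases relay that signal to cascades of mitogen-activated protein (MAP) kinases, while calcium-dependent kinases read the rise in calcium that accompanies it. In Arabidopsis leaves many of these genes are themselves induced when immunity is triggered, whereas others act in meristem, pollen or cold signalling.

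Each library held 11859813 to 13382460 counts in genes and detected 22212 to 23176 genes. Correlations of log2 CPM (counts per 1e+06 of the scaled library size) across genes lay between 0.986 and 0.992 within groups, where genes are no independent replicates. Among the libraries no pair agreed within counting noise, with a chi-square per degree of freedom of 1.66 to 10.7, and each was counted as a replicate. The leaf photosynthesis markers CA1 and LHCB2.1, the 2 of a list of 10 that the tables name, summed to 16092 to 16698 CPM in the leaf libraries, 203 to 300 at the 3-week apex and 137 to 424 at the 5-week apex. These sums hide a fall of CA1, from a mean of 16.9 CPM at the 3-week apex to 0.549 at the 5-week apex. The log2 change of CA1 was -4.93 (SE 0.67; edgeR quasi-likelihood test, adjusted p = 3.28e-05). LHCB2.1 had 231 ± 39.4 and 294 ± 146 CPM there (SD, n = 3 each) and did not pass (edgeR adjusted p = 0.307). The part of leaf tissue in the age differences below was not tested. None of 10 shoot meristem markers is named in the tables, so that the apex label was not checked by them. The labels do not say whether replicates are separate plants or pools. The p-values therefore set differences between groups only against the spread among these samples, which may in part be technical.

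In the mutant leaf most of the 37 genes were listed lower than in the control. The leaf tables held 36 of them, 30 lower and 6 higher in the mutant by the authors' deposited table, and STY46 was the 1 gene not listed there. Over all genes the leaf tables listed 801 lower (2.62% of the 30538 IDs) and 397 higher (1.3%). They were also the longest tables over all 1487 listed IDs, from which the 37 were drawn. Lower genes were thus 83.3% of the listed kinase-named genes and 66.9% of all genes listed in the leaf. The median log2 fold change was -1.63 over the 30 lower genes and 1.39 over the 6 higher ones in the authors' deposited table, close to the medians of -1.66 and 1.43 over all listed genes. Because the genes were drawn from these same tables, the counts describe the selection and no test was made on them.

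At the apex few of the genes were listed, and the apex tables were also shorter than the leaf tables over all 1487 listed IDs. At the 3-week apex PKS4 and STY46 were higher and SNRK2-8 lower in the authors' deposited table, against 242 higher (0.792%) and 85 lower (0.278%) genes in all. At the 5-week apex PKS4 and NIK1 were higher and none of the 37 was lower in the authors' deposited table, which listed 66 higher (0.216%) and 50 lower (0.164%) genes. Of the 37 genes 34 were listed in 1 setting, NIK1 and SNRK2-8 in 2, and PKS4 in all 3. The control samples behind the 3 settings were not analysed here, and whether a fold differed between settings was not tested.

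**Figure D1:**
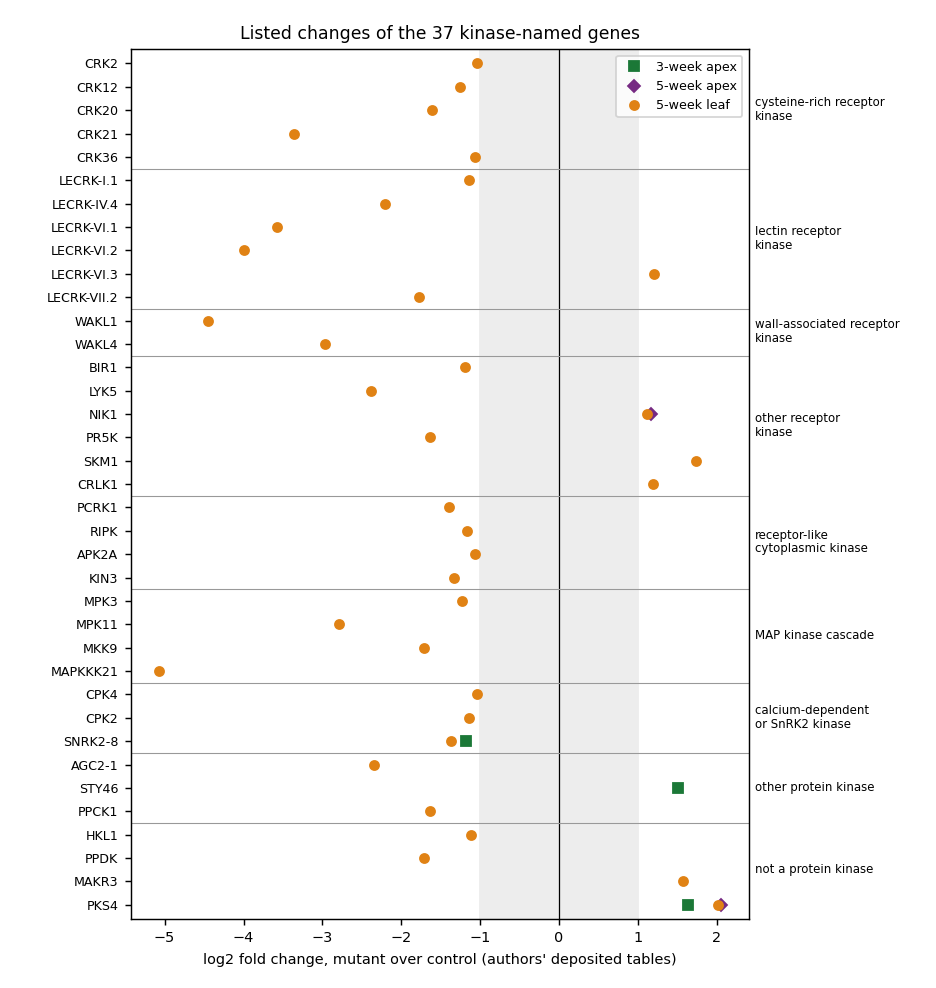
Mutant over control log2 fold change of the 37 kinase-named genes in the authors' deposited tables, ordered by role, with 1 symbol for each setting (3-week apex, 5-week apex, 5-week leaf) and no error given in the tables. In the leaf 30 genes lie below 0, down to MAPKKK21 at 0.0297 of the control on 2 mutant leaf counts. Another 6 lie above 0, led by PKS4 at 4.04-fold. The 6 lowest folds belong to genes with mutant leaf means of only 0.665 to 12.97 normalized counts.

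The same mutant libraries were then compared with each other, by age (5-week against 3-week apex) and by organ (5-week leaf against 5-week apex). Of the 37 genes 31 passed the expression filter and were tested among 20633 genes. The 6 that did not, CRK21, LECRK-VI.1, LECRK-VI.2, WAKL1, WAKL4 and MAPKKK21, are given by their counts. These 6 also had the lowest leaf folds of the 37, 0.0297 to 0.128 of the control by the authors' deposited table. From 3 to 5 weeks 2 genes rose at the apex, NIK1 and RIPK, and 7 fell, CRK36, LECRK-VI.3, PR5K, MKK9, CPK4, STY46 and PKS4 (edgeR quasi-likelihood test, adjusted p of 0.05). Over all tested genes 19.1% were called higher and 21% lower, 40.1% in either direction, against 29.0% of the 31. Groups did not overlap for 14 of the 31 genes and for 52% of all genes. The median log2 change was 0.00 over the 31 and 0.01 over all genes.

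Between organs the tested genes stood higher in the leaf more often than lower. In the leaf 19 of the 31 were higher than at the 5-week apex and 7 lower, CRK12, LECRK-VII.2, NIK1, SKM1, CRLK1, HKL1 and PKS4, while 5 did not pass. Over all tested genes 37.1% were called higher and 42% lower, 79.1% in either direction, against 83.9% of the 31. The groups did not overlap for 24 of the 31 genes and for 79.7% of all genes. The median log2 change was 0.74 over the 31 and -0.10 over all genes. These directions rest on the scaling: with library totals alone the median of all genes moved to -0.93, the share of calls that were higher moved from 46.9% to 22.04% of all calls, and the 31 genes gave 11 higher and 13 lower. Between the ages the share of calls that were higher was 47.6%, and 66.2% with library totals alone, 40.1% with relative log expression (RLE) size factors and 38.2% in DESeq2.

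The 2 contrasts share the 5-week apex libraries, and the listed genes were selected with these same mutant libraries, so neither contrast is independent of the listing or of the other. Of the 24 tested genes listed lower in the mutant leaf, 16 were higher in the mutant leaf than at the mutant 5-week apex and 3 were lower. Of the 6 listed higher in the mutant leaf, 2 were higher and 4 lower than at the 5-week apex. Over all tested genes 37.1% were called higher and 42% lower in the leaf. With library totals alone the higher calls of BIR1, PCRK1, RIPK, KIN3, CPK4, PPCK1 and MAKR3 were lost or turned to lower. Whether listing and organ direction are linked was not tested. In whole organs fewer cells of a type and less RNA per cell cannot be told apart. CPM were not divided by gene length, so levels below are compared between groups and not between genes.

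**Figure D2:**
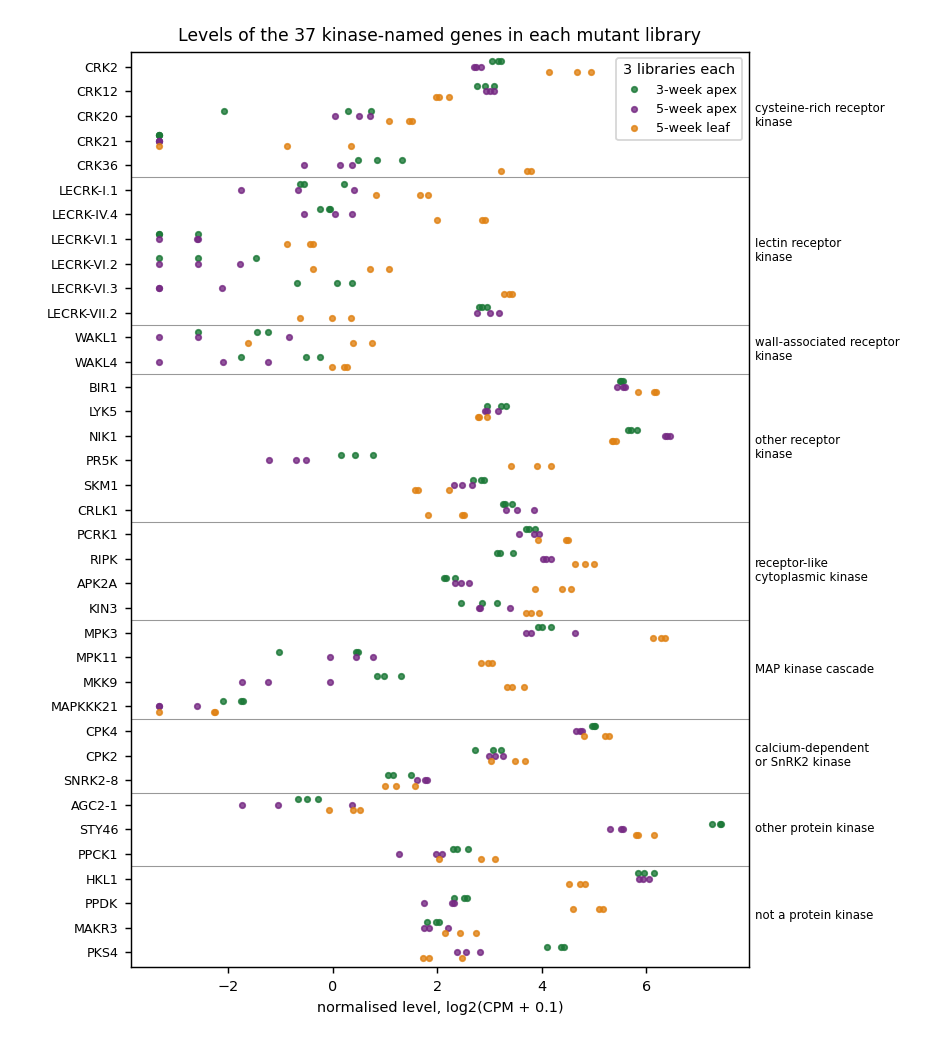
Level, as log2(CPM + 0.1), of the 37 kinase-named genes in each of the 9 mutant libraries, with 1 point for each library and colours for the 3-week apex, 5-week apex and 5-week leaf. MPK3, PR5K, CRK36 and LECRK-VI.3 have all 3 leaf points above all apex points, and LECRK-VII.2, NIK1 and HKL1 have theirs below all apex points.

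Among the receptors, the cysteine-rich receptor kinases (CRKs), whose outer domains carry cysteine-rich repeats and of which several respond to pathogens and reactive oxygen in Arabidopsis, were all listed lower in the mutant leaf. The 5 genes stood at 0.0973 (CRK21) to 0.486 (CRK2) of the control by the authors' deposited table. Of all genes listed in the leaf 66.9% were lower. CRK36 (Aa_G320630) had 13.8, 13.1 and 9.26 CPM in the 3 leaf libraries, 0.580, 1.00 and 1.19 at the 5-week apex, with 1.70, 1.29 and 2.39 at the 3-week apex. All leaf libraries were above all apex libraries, and the 5-week apex libraries lay below the 3-week ones. CRK36 was higher in the leaf than at the 5-week apex by 3.70 (SE 0.28) on the log2 scale (edgeR adjusted p = 2.30e-09). It fell by 0.96 between the ages (SE 0.34; edgeR adjusted p = 0.0336), and this last call was lost without replicate 1 or 3 of the 3-week apex (edgeR adjusted p = 0.0576 and 0.168) or replicate 1 or 2 of the 5-week apex (0.116 and 0.0587). It was lost with library totals alone as well (edgeR adjusted p = 0.0558).

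CRK2 (Aa_G17590), a CRK with a conserved role in growth and stress responses, had 30.7, 25.4 and 17.5 CPM in the leaf libraries. Its levels were 7.03, 6.61 and 6.41 at the 5-week apex, with 8.87, 8.17 and 9.24 at the 3-week apex. The leaf again stood above every apex library, by 1.88 (SE 0.17) on the log2 scale against the 5-week apex (edgeR adjusted p = 2.16e-08). Between the ages CRK2 did not pass (edgeR adjusted p = 0.0889), but without leaf replicate 3 it passed as lower at 5 weeks (edgeR adjusted p = 0.0210). CRK12 (Aa_G200910) ran the other way, with 3.98, 3.82 and 4.58 CPM in the leaf against 7.54, 8.41 and 7.99 at the 5-week and 8.35, 7.42 and 6.65 at the 3-week apex. Its leaf libraries were below all apex libraries, with a log2 change of -0.95 (SE 0.16; edgeR adjusted p = 5.74e-05). CRK20 had 2.47 ± 0.406 CPM in the leaf and 1.27 ± 0.310 at the 5-week apex (mean ± SD, n = 3 each) and did not pass (edgeR adjusted p = 0.0574). It passed as higher in the leaf with RLE size factors (edgeR adjusted p = 0.0450), in DESeq2 (0.0483) and without 3-week apex replicate 1 or 2 (edgeR adjusted p = 0.0490 and 0.0120). CRK21 (Aa_G200970) had no count in any apex library and 15 counts in the leaf, in replicates 1 and 2 only, at 0.442 and 1.17 CPM. Against a floor of 3 counts over the 5-week apex group its leaf level was 8.32-fold higher, a ratio that leaves out the counting error of the leaf. Replicate 2 held 11 of the 15 leaf counts, and without it the leaf mean moved from 0.537 to 0.221 CPM.

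The L-type lectin receptor kinases (LECRKs), with an outer domain like that of legume lectins, include immune receptors in Arabidopsis. In the mutant leaf 5 of the 6 were listed lower and 1 higher, where 66.9% of all listed genes were lower. LECRK-VI.2, which promotes resistance to bacteria in Arabidopsis, stood at 0.0625 of the control, LECRK-VI.1 at 0.0842, LECRK-IV.4 at 0.218, LECRK-VII.2 at 0.293 and LECRK-I.1 at 0.453 in the authors' deposited table. LECRK-VI.3 was the exception, at 2.3-fold, with a mutant mean of 93.34 normalized counts by the authors' deposited table. LECRK-VI.2 (Aa_G53960) and LECRK-VI.3 (Aa_G53950) have adjacent ID numbers and related names. How reads shared by near-identical copies were counted was not given in the sources used here, so values of this pair, and of other closely related kinases, are uncertain to that extent.

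LECRK-VI.3 had 10.3, 10.6 and 9.60 CPM in the leaf, 0.129, 0 and 0 at the 5-week apex, with 0.522, 0.953 and 1.20 at the 3-week apex. The 3 groups did not overlap, with the leaf the highest and the 5-week apex close to no counts. The groups held 279, 2 and 40 counts, a leaf over 5-week apex ratio of 232 (95% counting interval 63.7 to 1926) and a 5-week over 3-week apex ratio of 0.0494 (0.00578 to 0.190). Both differences passed (edgeR adjusted p = 1.57e-10 between organs and 2.67e-04 between ages). Counting intervals cover counting error only, since reads without molecular identifiers are not independent molecules.

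LECRK-VI.2 had 1.55, 2.02 and 0.670 CPM in the leaf libraries, resting on 39 counts, against 4 counts over the 5-week apex and 5 over the 3-week apex libraries. The counting ratio of leaf over 5-week apex was 16.2 (95% interval 5.85 to 62.5). LECRK-VI.1 (Aa_G24250) had 16 counts in the leaf against 2 at the 5-week apex, a ratio of 13.3 (3.13 to 119), and 1 at the 3-week apex. Both had low levels even where they were highest, and neither was tested. Without replicate 1 the LECRK-VI.2 means moved from 0.110 to 0.0340 CPM at the 3-week and from 0.0867 to 0.0334 CPM at the 5-week apex. LECRK-IV.4 (Aa_G99630) had 7.18, 7.43 and 3.91 CPM in the leaf against 0.580, 0.934 and 1.19 at the 5-week apex, with 0.848, 0.749 and 0.865 at the 3-week apex. All its leaf libraries were above the apex libraries, by 2.77 (SE 0.31) on the log2 scale (edgeR adjusted p = 4.35e-07).

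LECRK-I.1 was higher in the leaf as well, at 2.73 ± 0.927 against 0.652 ± 0.523 CPM at the 5-week apex (SD, n = 3 each), a log2 change of 2.04 (SE 0.46; edgeR adjusted p = 7.63e-04). Its 5-week apex mean moved to 0.366 CPM without replicate 1. LECRK-VII.2 (Aa_G44440) was the lectin receptor kinase with the opposite order, at 0.552, 1.17 and 0.893 CPM in the leaf, 6.70, 8.01 and 8.99 at the 5-week apex, with 7.11, 7.69 and 6.85 at the 3-week apex. Its leaf libraries lay far below both apex groups, which overlapped each other. The log2 change from the 5-week apex to the leaf was -3.16 (SE 0.25; edgeR adjusted p = 5.53e-09). LECRK-VII.2 was thus low in the mutant leaf relative both to the control leaf in the authors' deposited table and to the mutant apex.

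Wall-associated kinases reach into the cell wall and bind pectin in Arabidopsis. Both listed wall-associated kinase-like genes were lower in the mutant leaf, where 66.9% of all listed genes were lower. WAKL1 stood at 0.0458 and WAKL4 at 0.128 of the control by the authors' deposited table. Their mutant levels were low throughout. WAKL1 (Aa_G148280) had 1.22, 1.59 and 0.223 CPM in the leaf, with 28 counts against 8 over the 5-week and 10 over the 3-week apex libraries. WAKL4 (Aa_G148300) had 1.105, 1.06 and 0.893 CPM in the leaf, with 28 counts against 7 and 23. The leaf over 5-week apex counting ratios were 5.82 (95% interval 2.59 to 14.8) for WAKL1 and 6.66 (2.84 to 18.05) for WAKL4. The 5-week apex mean of WAKL1 moved from 0.176 to 0.0334 CPM without replicate 3, and that of WAKL4 from 0.151 to 0.0661 without replicate 1. The counts of WAKL1 in 1 leaf library lay within the range of the apex libraries.

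The remaining 6 receptor kinases were divided, with 3 listed lower and 3 higher in the mutant leaf. LYK5, a receptor for chitin in Arabidopsis, stood at 0.191 of the control, PR5K, whose outer domain resembles the antimicrobial protein PR5, at 0.321, and BIR1, which restrains cell death and immune responses together with BAK1, at 0.437 in the authors' deposited table. SKM1, a receptor for a CLE peptide in Arabidopsis pollen tubes, had a fold of 3.34, CRLK1, a calmodulin-regulated kinase of cold signalling, one of 2.29, and NIK1, a receptor kinase of antiviral defence, one of 2.17 in the authors' deposited table. Set by organ, the 3 genes listed higher in the leaf were all lower in the mutant leaf than at the mutant 5-week apex. Over all tested genes 42% were called lower there.

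NIK1 (Aa_G379140) was also listed higher at the 5-week apex, at 2.23-fold, with a mutant mean of 1148.07 normalized counts by the authors' deposited table. Its levels were 56.4, 52.1 and 49.9 CPM in the 3-week apex libraries, 82.0, 88.1 and 84.0 in the 5-week ones and 40.8, 43.0 and 40.9 in the leaf. The 3 groups were tight and did not overlap, with the 5-week apex the highest. NIK1 rose between the ages by 0.68 (SE 0.06) on the log2 scale (edgeR adjusted p = 9.95e-07) and was lower in the leaf than at the 5-week apex, with a log2 change of -1.03 (SE 0.07; edgeR adjusted p = 5.81e-10).

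PR5K (Aa_G439600) had 14.9, 18.1 and 10.5 CPM in the leaf, 0.516, 0.601 and 0.330 at the 5-week apex, with 1.24, 1.02 and 1.60 at the 3-week apex. The groups were again fully apart, here with the leaf the highest and the 5-week apex the lowest. PR5K was higher in the leaf by 4.88 (SE 0.29) on the log2 scale (edgeR adjusted p = 1.21e-10). It fell by 1.40 between the ages (SE 0.40; edgeR adjusted p = 0.0107), which did not pass without 3-week apex replicate 3 (edgeR adjusted p = 0.0516).

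CRLK1 had 11.9 ± 2.35 CPM at the 5-week apex and 4.84 ± 1.23 in the leaf (SD, n = 3 each), a log2 change of -1.29 (SE 0.19; edgeR adjusted p = 1.03e-05). SKM1 had 5.54 ± 0.684 and 3.48 ± 0.955 CPM (SD, n = 3 each), a log2 change of -0.67 (SE 0.21; edgeR adjusted p = 0.00692). For both genes the leaf libraries were below the 5-week apex libraries, and the age difference did not pass. BIR1 had 70.6, 72.5 and 57.0 CPM in the leaf against 46.9, 43.2 and 48.4 at the 5-week apex, with 45.3, 46.0 and 46.9 at the 3-week apex. It was higher in the leaf by 0.53 (SE 0.08; edgeR adjusted p = 2.14e-05), a direction that turned to -0.30 with library totals alone (edgeR adjusted p = 0.00340). LYK5 lay between 6.81 and 9.84 CPM in all 9 libraries and passed in neither contrast, with a log2 difference between organs of -0.17 (95% interval -0.47 to 0.13; edgeR adjusted p = 0.312). With library totals alone LYK5 was lower in the leaf, at -1.002 (SE 0.16; edgeR adjusted p = 1.41e-05).

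**Figure D3:**
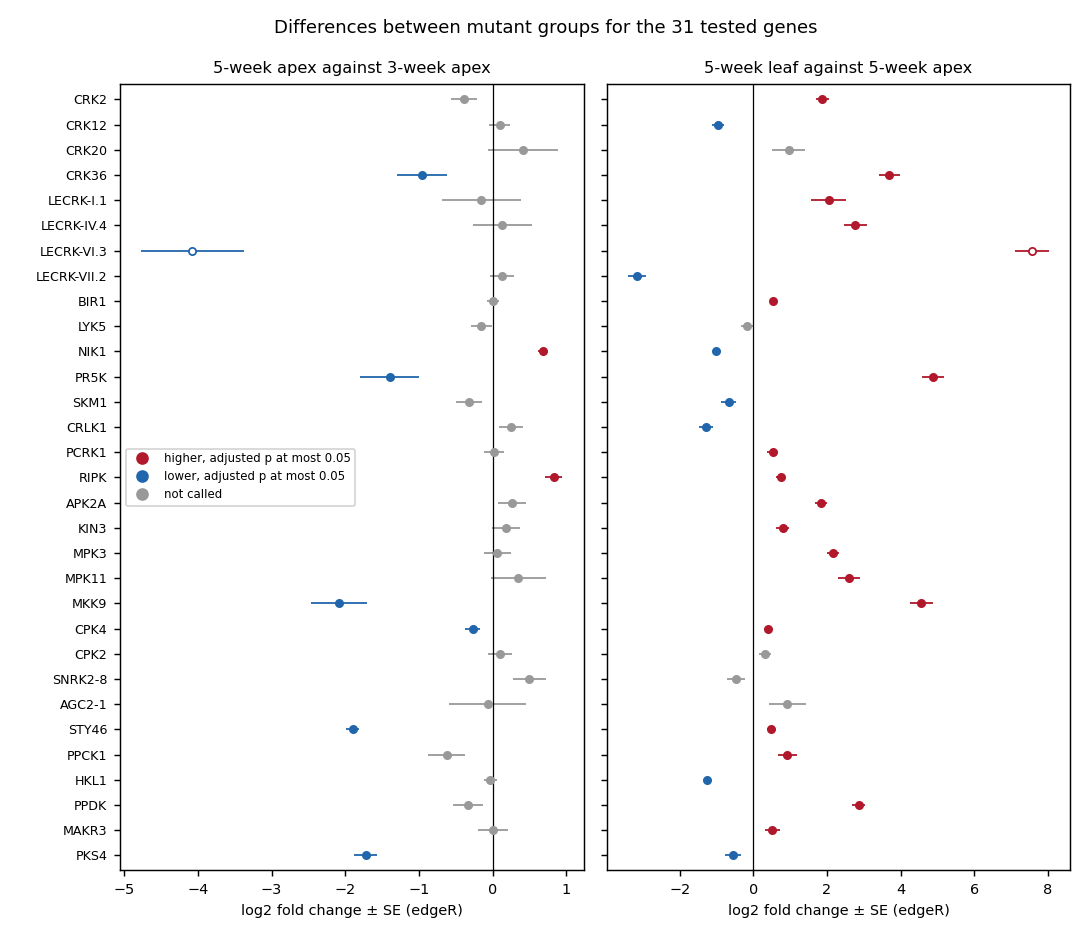
Log2 change of the 31 tested genes with its SE, from the 3-week to the 5-week apex in the left panel and from the 5-week apex to the leaf in the right panel, with colours for genes called higher, called lower or not called. Called genes number 2 higher and 7 lower by age and 19 higher and 7 lower by organ, and the open symbol of LECRK-VI.3 marks fitted values that rest on 2 counts at the 5-week apex.

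Downstream of the receptors, the 4 receptor-like cytoplasmic kinases were all listed lower in the mutant leaf, over the narrow range of 0.38 (PCRK1) to 0.478 (APK2A) of the control by the authors' deposited table. In Arabidopsis PCRK1 takes part in pattern-triggered immunity, RIPK phosphorylates the immune regulator RIN4, and APK2A and KIN3 belong to the same kinase family. Of all genes listed in the leaf 66.9% were lower. All 4 cytoplasmic kinases were higher in the mutant leaf than at the mutant 5-week apex, as 37.1% of all tested genes were. RIPK (Aa_G116250) had 10.9, 9.06 and 8.71 CPM in the 3-week apex libraries, 16.8, 16.3 and 17.9 in the 5-week ones and 28.2, 32.1 and 24.7 in the leaf. The groups followed each other without overlap, lowest at the 3-week apex and highest in the leaf. RIPK rose between the ages by 0.83 (SE 0.12) on the log2 scale (edgeR adjusted p = 5.79e-05). It was higher in the leaf by 0.74 (SE 0.11; edgeR adjusted p = 1.36e-05), and with library totals alone this organ change was -0.092.

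APK2A had 23.4, 20.8 and 14.6 CPM in the leaf against 5.42, 4.94 and 6.01 at the 5-week apex, a log2 change of 1.85 (SE 0.17; edgeR adjusted p = 2.76e-08). Its leaf libraries stood well above every apex library. KIN3 was higher in the leaf by 0.80 (SE 0.19; edgeR adjusted p = 9.40e-04) without overlap of the groups, and PCRK1 by 0.52 (SE 0.14; edgeR adjusted p = 0.00306) with overlap, since leaf replicate 3 at 15.1 CPM lay below 5-week apex replicate 3 at 15.3. With library totals alone these 2 changes turned to -0.035 and -0.31. Between the ages PCRK1, APK2A and KIN3 did not pass.

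The MAP kinase cascade was represented at each of its tiers. All 4 of its genes were listed lower in the mutant leaf, where 66.9% of all listed genes were lower. MAPKKK21 stood at 0.0297 of the control, the lowest fold of the 37 genes, MPK11 at 0.144, MKK9 at 0.306 and MPK3 at 0.426 in the authors' deposited table. MPK3 is a central kinase of immune and stress signalling in Arabidopsis, MKK9 a kinase that activates MPK3 and its relative MPK6, and MPK11 a further MAP kinase activated by microbial patterns. The 3 tested genes were all higher in the mutant leaf than at the 5-week apex, as 37.1% of all tested genes were.

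MPK3 (Aa_G207660) had 77.9, 81.6 and 69.9 CPM in the leaf, 13.8, 12.8 and 24.6 at the 5-week apex, with 15.2, 15.9 and 18.02 at the 3-week apex. The leaf libraries were far above both apex groups, and 5-week apex replicate 3 was the highest apex library. MPK3 was higher in the leaf by 2.16 (SE 0.17) on the log2 scale (edgeR adjusted p = 3.57e-09) and did not pass between the ages (0.06, 95% interval -0.29 to 0.42; edgeR adjusted p = 0.811). MPK11 (Aa_G105750) had 7.73, 8.18 and 7.03 CPM in the leaf against 1.61, 1.27 and 0.859 at the 5-week apex, with 0.391, 1.29 and 1.26 at the 3-week apex. The apex groups overlapped and the leaf stood apart, by 2.61 (SE 0.30; edgeR adjusted p = 5.22e-07).

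MKK9 (Aa_G524720) had 1.70, 2.38 and 1.86 CPM in the 3-week apex libraries, 0.322, 0.200 and 0.859 in the 5-week ones and 10.7, 12.5 and 9.93 in the leaf. No groups overlapped, and the 5-week apex was the lowest. MKK9 fell by 2.08 between the ages (SE 0.38) on the log2 scale (edgeR adjusted p = 4.59e-04) and was higher in the leaf by 4.56 (SE 0.31; edgeR adjusted p = 7.52e-10). Replicate 3 held most of the 5-week apex level, whose mean moved from 0.460 to 0.261 CPM without it. MAPKKK21 (Aa_G139410) had 8, 1 and 2 counts in all at the 3-week apex, 5-week apex and leaf, so its fold against the control rests on 2 counts in the mutant leaf. No level difference between the mutant groups was read from it at this depth.

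**Figure D4:**
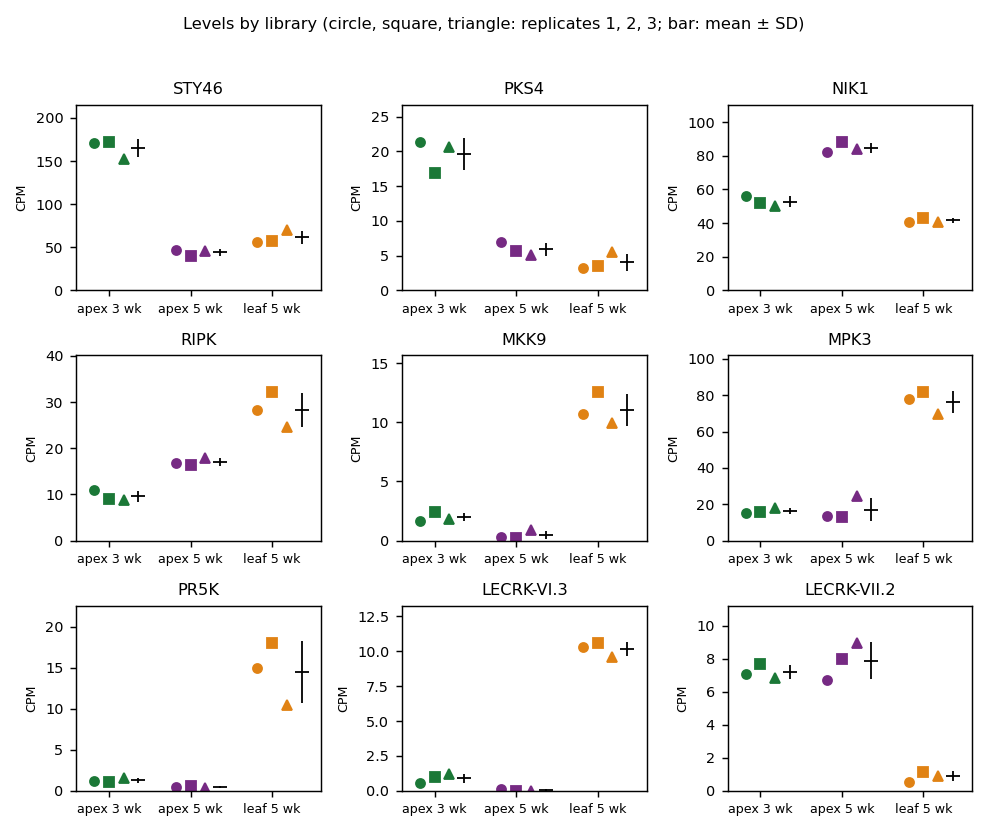
Scaled CPM of selected kinase-named genes in each mutant library, with 1 point for each library, a bar at the group mean and an error bar of 1 SD (n = 3). STY46 and PKS4 are highest at the 3-week apex, NIK1 at the 5-week apex, and MPK3, PR5K and MKK9 in the leaf.

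The calcium-dependent kinases CPK4 and CPK2 and the SnRK2 kinase SNRK2-8 were listed lower in the mutant leaf, as 66.9% of all listed genes were. They stood within a narrow band, at 0.486, 0.455 and 0.388 of the control by the authors' deposited table. CPK4 acts in abscisic acid and immune signalling in Arabidopsis, and SnRK2 kinases relay osmotic stress. SNRK2-8 (Aa_G508920) was also listed lower at the 3-week apex, at 0.443 of the control by the authors' deposited table. Its levels were 2.74, 2.11 and 2.00 CPM in the 3-week apex libraries, 2.97, 3.40 and 3.30 in the 5-week ones and 2.87, 2.23 and 1.90 in the leaf. The 5-week apex libraries were the highest without overlap, but neither difference passed, at 0.49 by age (95% interval 0.05 to 0.94; edgeR adjusted p = 0.0917) and -0.46 by organ (-0.94 to 0.01; edgeR adjusted p = 0.0926). With library totals alone both passed, at 0.60 by age (edgeR adjusted p = 0.0449) and -1.29 by organ (edgeR adjusted p = 1.16e-04).

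CPK4 (Aa_G537500) had 31.1, 32.1 and 32.0 CPM in the 3-week apex libraries, 26.4, 25.2 and 27.3 in the 5-week ones and 39.1, 36.7 and 27.8 in the leaf. The 5-week apex was the lowest, and leaf replicate 3 came close to it. CPK4 fell by 0.27 between the ages (SE 0.10; edgeR adjusted p = 0.0399), a call lost when any 1 of the 6 apex libraries was left out (edgeR adjusted p = 0.0538 to 0.108) and with library totals alone (0.195). It was higher in the leaf by 0.39 (SE 0.10; edgeR adjusted p = 0.00236), which turned to -0.44 with library totals alone (edgeR adjusted p = 9.29e-04). CPK2 had 10.6 ± 2.39 CPM in the leaf and 8.58 ± 0.777 at the 5-week apex (SD, n = 3 each) and passed in neither contrast (organ edgeR adjusted p = 0.109). Its organ change passed in opposite directions without leaf replicate 3, at 0.48 (edgeR adjusted p = 0.0159), and with library totals alone, at -0.52 (edgeR adjusted p = 0.0109).

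Of the other protein kinases, STY46 was the only one of the 37 genes listed at the apex and not in the leaf. STY46 (Aa_G219270), which in Arabidopsis phosphorylates the transit peptides of proteins bound for chloroplasts, had a fold of 2.85 at the 3-week apex, and a mutant mean of 2432.21 normalized counts by the authors' deposited table. Its levels were 171, 172 and 153 CPM in the 3-week apex libraries, 47.3, 39.5 and 45.7 in the 5-week ones and 56.1, 57.3 and 70.5 in the leaf. The 3-week apex stood above all other libraries, and the leaf libraries lay above the 5-week apex ones. Between the ages STY46 fell by 1.90 (SE 0.09) on the log2 scale (edgeR adjusted p = 1.00e-09). It was higher in the leaf than at the 5-week apex by 0.47 (SE 0.10; edgeR adjusted p = 2.57e-04), but with library totals alone that change was -0.36 (edgeR adjusted p = 0.00156).

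PPCK1, the kinase that activates phosphoenolpyruvate carboxylase, stood at 0.322 of the control in the leaf, and AGC2-1, also known as OXI1 and linked to oxidative signals, at 0.196 in the authors' deposited table. PPCK1 had 8.51, 7.01 and 4.02 CPM in the leaf against 2.32, 4.14 and 3.83 at the 5-week apex. It was higher in the leaf by 0.93 (SE 0.26; edgeR adjusted p = 0.00396), although leaf replicate 3 fell within the apex range and the call was lost with library totals alone (edgeR adjusted p = 0.734). Between the ages PPCK1 did not pass (-0.63, 95% interval -1.12 to -0.13; edgeR adjusted p = 0.0585), but it did with RLE size factors (0.0432), in DESeq2 (0.0443), without the filter (0.0373) and without 5-week apex replicate 2 (0.0443) or leaf replicate 3 (0.0241). AGC2-1 was at 0.592 ± 0.526 CPM at the 5-week apex and 1.13 ± 0.255 in the leaf (SD, n = 3 each) and did not pass (edgeR adjusted p = 0.109). Without 5-week apex replicate 3 its mean there moved to 0.293 CPM and the organ change passed, at 1.90 (edgeR adjusted p = 0.00393).

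The 4 genes that are no protein kinases were split. PKS4 (Aa_G140720), a substrate of the phytochrome and phototropin photoreceptors that acts in phototropism, was higher in all 3 settings, with folds of 3.11 and 4.14 at 3 and 5 weeks in the apex and 4.04 in leaves by the authors' deposited table. Its levels were 21.3, 17.0 and 20.6 CPM in the 3-week apex libraries, 6.96, 5.74 and 5.09 in the 5-week ones and 3.20, 3.50 and 5.47 in the leaf. The 3-week apex was far above the rest, and leaf replicate 3 lay within the 5-week apex range. PKS4 fell by 1.73 between the ages (SE 0.16) on the log2 scale (edgeR adjusted p = 7.13e-07). The organ change was -0.55 (SE 0.21; edgeR adjusted p = 0.0240), and this call was lost without 5-week apex replicate 1 (edgeR adjusted p = 0.0875) or leaf replicate 1 or 2 (0.115 and 0.0974).

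MAKR3, a relative of the brassinosteroid signalling regulator BKI1, had a fold of 2.96 in the leaf in the authors' deposited table. Its mutant levels were 4.31, 5.31 and 6.59 CPM in the leaf and 4.51, 3.27 and 3.50 at the 5-week apex. The groups overlapped, and the organ change of 0.52 (SE 0.21; edgeR adjusted p = 0.0319) was lost without replicate 2 or 3 of either group (edgeR adjusted p = 0.0596 to 0.169) and turned to -0.31 with library totals alone. PPDK, which regenerates phosphoenolpyruvate, stood at 0.305 of the control and HKL1, a hexokinase-like protein that affects growth in Arabidopsis, at 0.462 in the authors' deposited table. PPDK (Aa_G37860) had 34.2, 36.001 and 24.1 CPM in the leaf against 4.77, 3.27 and 4.89 at the 5-week apex, a log2 change of 2.86 (SE 0.17; edgeR adjusted p = 1.33e-10). HKL1 (Aa_G178290) was lower in the leaf, at 26.4, 28.2 and 22.9 CPM against 66.6, 58.2 and 61.3, a log2 change of -1.26 (SE 0.10; edgeR adjusted p = 3.01e-09). Both genes had leaf libraries clear of the apex range, in opposite directions, and neither passed between the ages.

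The 3 leaf libraries were not alike for these genes. Of the 28 genes listed lower in the mutant leaf with counts in each leaf library, leaf replicate 3 was the lowest for 23, at a median ratio of 0.743 to the mean of its fellow replicates, against 1.12 and 1.14 for replicates 1 and 2. The same replicate was the lowest for 524 of all 729 such listed genes, with the same median of 0.743, and for 7005 of 19976 tested genes, with a median of 1.00. For the 6 genes listed higher its median was 1.29, and it was the highest for 3 of them. The genes were listed as lower or higher with these same 3 libraries, so these ratios are not independent of the listing. Leaving it out moved no leaf mean of the 37 genes by more than 1.5 times. The epidermal marker PDF1, the 1 gene of 3 in its list that the tables name, reached 39.2 CPM in leaf replicate 3, where replicates 1 and 2 had 4.64 and 2.87. The part of that difference in the values above was not tested.

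**Figure D5:**
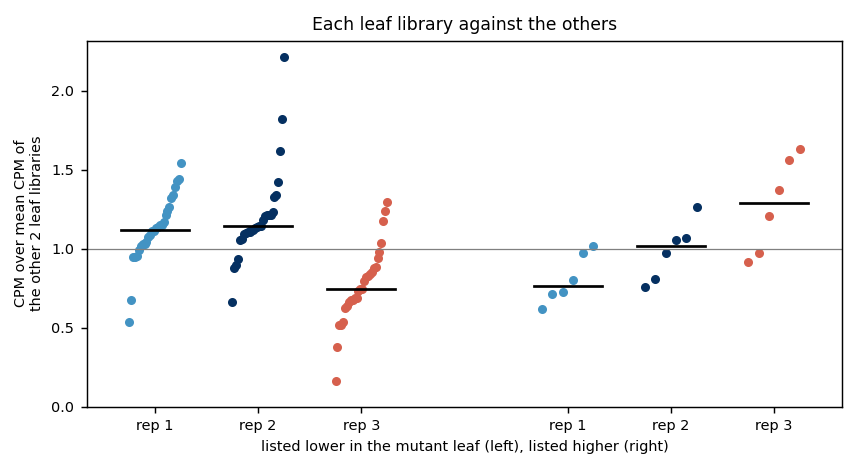
Level of each kinase-named gene in a leaf library divided by the mean of the other leaf replicates, for the 28 genes listed lower and the 6 listed higher in the mutant leaf with at least 1 count in every leaf library. Replicate 3 has a median of 0.743 for the lower genes and 1.29 for the higher ones.

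Some marker genes of other tissues also moved between the groups. The vascular markers SUC2 and LAC17, 2 of 5 in their list, summed to 354 to 380 CPM in the leaf, 14.1 to 31.8 at the 5-week apex and 40.2 to 48.6 at the 3-week apex. PDF1 was at 2.87 to 39.2 CPM in the leaf, 647 to 836 at the 5-week apex and 1174 to 1409 at the 3-week apex. The guard cell and stomatal markers KAT1 and TMM, 2 of 5, summed to 5.20 to 8.82, 11.2 to 14.8 and 19.5 to 20.8 CPM in the same order. Of the pair TMM alone carried this order, at 3.64 ± 2.30, 9.39 ± 2.02 and 17.4 ± 1.52 CPM (SD, n = 3 each). KAT1 was at 3.21 ± 0.599, 3.75 ± 0.327 and 2.72 ± 0.887 CPM (SD, n = 3 each). KAT1 passed neither by organ nor by age (edgeR adjusted p = 0.422 and 0.132). PDF1 passed by organ, with a log2 change of -5.53 (SE 0.50; edgeR adjusted p = 3.18e-08). Its age change of -0.87 did not pass (SE 0.39; edgeR adjusted p = 0.0846). Some of these tissue markers also differed between mutant and control. In the leaf PDF1 had a fold of 54.37, TMM of 6.33 and LAC17 of 2.0, while KAT1 stood at 0.378, by the authors' deposited table. Leaf replicate 3 held most of the PDF1 level there, at 39.2 CPM against 4.64 and 2.87 in replicates 1 and 2. At the 5-week apex SUC2 had a fold of 2.22 and LHCB2.1 stood at 0.492, and at the 3-week apex CA1 had a fold of 2.44, by the authors' deposited table. The part of these markers in the differences between mutant and control, organs or ages was not tested.

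Genes that act with these kinases were taken from 5 lists of Arabidopsis symbols, of which the authors' tables name only listed genes. Of 34 partners of immune receptors and early immune response genes 13 were named, PCRK1 among them, and all 13 were lower in the mutant leaf in the authors' deposited table, where 66.9% of all genes listed in the leaf were lower. Among them SYP122, a syntaxin of secretion at the plasma membrane, stood at 0.151 of the control, PHI-1 at 0.186, the ubiquitin ligase gene PUB22 at 0.2, CBP60G, a transcription factor of salicylic acid synthesis, at 0.311, PUB24 at 0.334 and PAD4, a regulator of immunity, at 0.403 in the authors' deposited table. WRKY40 was lower in the leaf (0.485) but higher at both apex ages (2.16 and 2.31) by the authors' deposited table.

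Between the mutant groups 9 of the 12 tested genes of that list were higher in the leaf than at the 5-week apex and 1, EDS5, was lower, with a median log2 change of 1.36 beside -0.10 over all genes. Over all tested genes 37.1% were called higher and 42% lower. With library totals alone the list gave 6 higher and 3 lower. SYP122 was at 6.26 ± 0.688 CPM in the leaf and 0.196 ± 0.112 at the 5-week apex (SD, n = 3 each), a log2 change of 4.92 (SE 0.35; edgeR adjusted p = 1.47e-09). CBP60G was at 9.68 ± 1.15 and 0.569 ± 0.146 CPM (SD, n = 3 each), a log2 change of 4.07 (SE 0.30; edgeR adjusted p = 1.73e-09). Both were thus low at the apex and high in the leaf, as PR5K and MKK9 were. Between the ages 1 of the 12 rose, WRKY46, and 3 fell, PUB22, WRKY40 and PUB24. Over all tested genes 19.1% were called higher and 21% lower by age. PUB24 fell by 2.46 (SE 0.38; edgeR adjusted p = 9.89e-05).

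Of 34 calcium sensors 4 were named, CML37, CML38, CML41 and CP1, all lower in the mutant leaf, at 0.0523, 0.25, 0.463 and 0.339 of the control by the authors' deposited table, and CML41 had a fold of 4.06 at the 3-week apex there. Lower genes were 66.9% of all listed in the leaf. The 2 tested, CML41 and CP1, were higher in the leaf than at the 5-week apex (edgeR adjusted p = 0.00266 and 0.00123), and neither passed with library totals alone. Of 46 peptide ligands PSK4, a precursor of the growth peptide phytosulfokine, was the only one named, at 0.485 of the control in the leaf in the authors' deposited table, and it passed in neither contrast. None of 25 protein phosphatases was named. Of 21 genes of brassinosteroid and meristem receptor pathways 3 were named, BAS1, DWF4 and TMM. All 3 were higher in the mutant leaf, where 33.1% of all listed genes were higher. Their folds were 2.11, 2.01 and 6.33 by the authors' deposited table. BAS1, which inactivates brassinosteroids, was higher in the leaf than at the 5-week apex by 1.08 (SE 0.15; edgeR adjusted p = 5.32e-06), a call lost with library totals alone, and DWF4, which acts in their synthesis, did not pass but was called lower in the leaf with library totals alone. TMM, a receptor-like protein of stomatal patterning, had 2.76, 1.91 and 6.25 CPM in the leaf libraries, replicate 3 being the highest. It was lower in the leaf by this contrast, with a log2 change of -1.37 (SE 0.28; edgeR adjusted p = 2.71e-04), and fell by 0.89 between the ages (SE 0.21; edgeR adjusted p = 0.00305).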

How the data were processed

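Gene-level integer read counts for the 9 mutant libraries were deposited by the authors as 1 table of 34220 gene entries (30538 IDs, 1068 of them with several entries, none of the 37 genes among these) and 5 special counters. The special counters, 10.7% to 19.2% of all reads and 7.94% to 16.3% for reads in no gene, were left out of library sizes and tests. Per the submitters' processing notes the tools were STAR, HTSeq 0.5.4p1, DESeq and DESeq2, with no role given. Genome build, annotation, counting options and harvest time were not given in the sources used here. How RNA was prepared is known per the labels' protocols: RNA was selected for poly(A), libraries were made with a directional kit and single reads of 100 bases were sequenced.

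The authors' 6 deposited tables give, per the file headers, the mean normalized counts of the mutant (an expression signal), a fold or ratio of mutant over control, its log2 value and an adjusted p-value. The 6 columns of control means belong to no sample here and were not used. Divided by the mean count of the 3 libraries in the same group, the authors' mutant means gave median ratios of 0.981, 0.891 and 1.00. All 306, 100 and 1019 listed genes averaging 10 or more counts came within 5% of these, so tables and libraries describe the same samples.

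For tests on counts edgeR 4.0.16 was run under R 4.3.3, with TMM scaling (factors 0.694 to 1.26), its expression filter (minimum count 10) and the quasi-likelihood F-test, two-sided, in 1 model with 3 groups. Benjamini-Hochberg adjustment ran over the 20633 genes kept, at 0.05. The fit had a common biological coefficient of variation of 0.0768 with 9.80 prior degrees of freedom. The SE is the absolute log2 change over the square root of F. CPM are counts divided by the TMM-scaled library size and multiplied by 1e+06, and the figure of levels adds 0.1 CPM before the logarithm. Groups without counts were set against a floor of 3 counts over the group, and genes with few counts are given by the ratio of summed counts with an exact 95% interval. Alternatives were RLE size factors, library totals alone, no filter, DESeq2 1.42.0, a replicate block and leaving out each library. Further software was Python 3.11.15, numpy 2.4.6, pandas 2.3.3, matplotlib 3.10.9 for figures and scipy 1.17.1.

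The 37 genes, their roles and the gene and marker lists were chosen with earlier results of these data known. Genes are named by rule if listed in 2 or 3 settings, if among the 10 largest called changes per contrast and direction without overlap, if among the 6 highest or 6 lowest folds of a setting, or if the most abundant of their class. That rule names 28, and the other 9 (BIR1, LYK5, PCRK1, APK2A, KIN3, CPK2, PPCK1, CRK20 and AGC2-1) are named as the remaining genes, after their values were seen. Roles of genes are those of the Arabidopsis genes of that name, by the authors' pairing of IDs with Arabidopsis genes. Partner genes named from the lists were picked after their values were seen, beside counts over each whole list.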

Additional observations from a re-analysis of the deposited data

How the results depend on the processing

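Scaling had the widest effect. With library totals alone the organ contrast gave 11 higher and 13 lower of the 31 genes, and 4026 higher and 14239 lower of all genes, and 8 organ changes turned sign: RIPK to -0.092, CPK4 to -0.44, STY46 to -0.36, MAKR3 to -0.31, BIR1 to -0.30, PCRK1 to -0.31, KIN3 to -0.035 and CPK2 to -0.52. RLE size factors and DESeq2 each gave 2 higher and 8 lower by age and 20 higher and 7 lower by organ. Without a filter on low counts 37 genes were tested, with 2 and 8 by age and 24 and 7 by organ. Leaving out 1 library at a time left 31 or 33 of the genes tested. It gave 4 to 9 lower and always 2 higher by age, and 18 to 22 higher and 6 to 7 lower by organ. In all these fits 6 of the 9 age calls and 17 of the 26 organ calls held, and 24 of the 26 when library totals were set aside. Replicate numbers are shared by the groups. Deviations of same-numbered libraries correlated by -0.0771 to 0.00757 over 9 pairs, and those of differently numbered libraries by -0.0583 to 0.0680. Same-numbered libraries were thus no closer to each other, but these correlations cannot settle whether a number marks a common batch. With a replicate block 2 of the genes were higher and 5 lower by age, with CRK36 and CPK4 lost (edgeR adjusted p = 0.0556 and 0.0564), and by organ 19 were higher and 7 lower. Over all genes the block gave 3652 higher and 4029 lower by age, against 3933 and 4332 without it. Depth limited CRK21, LECRK-VI.1, LECRK-VI.2, WAKL1, WAKL4 and MAPKKK21 most, with at most 39 counts in any group. The genes were selected with the same mutant libraries and the control libraries were not analysed here, so neither contrast repeats the listing independently.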
